A study of Mus musculus with 40 samples.

Results

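Heat shock proteins and Bag3 form the protein quality control machinery that muscle uses to hold, refold or remove damaged contractile proteins. The 10 genes described here were chosen by name as Hspb1, Hspb6, Hspb7, Hspb8, Hspa1a, Hspa1b, Hsp90aa1, Hsph1, Dnajb1 and Bag3, out of 22844 genes in the tables. For 8 of them the count and TPM tables hold a row, and all 8 passed the filter on low counts. Hspa1a and Hspa1b, the stress-inducible HSP70 genes, were not analysed here because the tables used hold no row for them. The transcripts were followed over 40 mRNA libraries of the extensor digitorum longus (EDL), a fast muscle of the mouse hindlimb.

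All mice carried floxed Tsc1 alleles (Tsc1fl/fl, strain label Tsc1tm1Djk/J). TSCmKO mice lack Tsc1, a brake on the kinase complex mTORC1, in skeletal muscle fibers through Cre recombinase, whose promoter is not given in the sources used here, while control littermates (CON) had no Cre. Mice were 3 or 9 months old (3m, 9m) and were given vehicle or the mTORC1 inhibitor rapamycin (+RM) by intraperitoneal injection over 3 days. The labels state 4 mg per kg while the study text states more per day, which leaves the dose unsettled. There were 8 groups with 5 libraries each: 3mCON, 3mCON+RM, 3mTSCmKO, 3mTSCmKO+RM, 9mCON, 9mCON+RM, 9mTSCmKO and 9mTSCmKO+RM. Total counts were 8883870 to 35224669 per library, and the members had from 62 counts (Dnajb1) to 83296 counts (Hspb6) in a library. Per the labels, inserts measured 175 to 239 nt in libraries of 3-month-old mice and 223 to 308 nt in those of 9-month-old mice, so that insert size moved with age. The targeted gene Tsc1 lay at 26.5 to 30.7 CPM in 3mTSCmKO against 84.1 to 134 in 3mCON, and at 24.4 to 35.8 in 9mTSCmKO against 51.3 to 122 in 9mCON. Fast muscle markers (Acta1, Ckm, Myh4, Myh1, Pvalb, Tnnt3 and Mylpf) summed to at least 123421 TPM in every library, and 50 of 52 marker genes of all cell types listed were above 0 in every library (exceptions were Comp and Lep).

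Small heat shock proteins (Hspb1, Hspb6, Hspb7 and Hspb8) bind unfolding proteins without using ATP and keep them from aggregating. HSP70 and HSP90 then refold clients with ATP. J-domain proteins such as Dnajb1 deliver clients to HSP70, and Hsph1, an HSP110 protein, exchanges its nucleotide. Bag3 links HSP70 to Hspb8 and hands damaged filament proteins such as filamin C to autophagy, a route named chaperone-assisted selective autophagy that mechanically loaded muscle depends on. Heat shock factor 1 (Hsf1) switches on many of these genes by binding repeated GAA units, the heat shock element.

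In the GRCm38 build, Hspb1 lies at chr5:135887919-135889563, Hspb8 at chr5:116408491-116422864 and Hsph1 at chr5:149614287-149636376. Hspb7 lies at chr4:141420779-141425311, Hspb6 at chr7:30552178-30555443, Bag3 at chr7:128523616-128546981, Dnajb1 at chr8:83608193-83612653 and Hsp90aa1 at chr12:110690605-110702728. RefSeq promoter windows of 300 bases (GRCm38.p6, from 250 bases before to 50 after a gene's start) were found for 7 of the 8 members (all but Hsp90aa1), in 10 windows. Each was searched for paired heat shock units, GAANNTTC or TTCNNGAA, on both strands (the motifs are their own reverse complements). Windows of 5 of these 7 members (Hspb1, Hspb6, Hspb8, Hsph1 and Bag3) held a pair, against 17.0% of 27025 genes and 15.1% of 32851 windows in the whole promoter table. Hsph1 alone among these 7 members held the run of 3 alternating units, which 0.662% of all genes hold. The windows of Hspb7 and Dnajb1 held no pair. The promoters below are those of the 4 genes that were higher in TSCmKO muscle at both ages, and of Hsph1 for its 3-unit run, with matched units in capitals. In Hspb1 the pairs start 117 and 97 bases before the start of the gene, in Hspb8 the pair starts at base 3 of the gene, and in Bag3 at base 43, each counted from the RefSeq start of the window, which for Bag3 lies upstream of the gene start given above. A match describes the letters and is not evidence of binding.
Hspb1 (chr5:135887669-135887968, strand +): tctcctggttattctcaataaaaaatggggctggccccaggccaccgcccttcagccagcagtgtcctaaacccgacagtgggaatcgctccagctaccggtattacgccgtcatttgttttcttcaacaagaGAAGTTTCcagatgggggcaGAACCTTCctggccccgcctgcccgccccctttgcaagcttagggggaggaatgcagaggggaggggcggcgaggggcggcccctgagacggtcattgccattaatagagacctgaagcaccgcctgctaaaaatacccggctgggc
Hspb8 (chr5:116422815-116423114, strand -): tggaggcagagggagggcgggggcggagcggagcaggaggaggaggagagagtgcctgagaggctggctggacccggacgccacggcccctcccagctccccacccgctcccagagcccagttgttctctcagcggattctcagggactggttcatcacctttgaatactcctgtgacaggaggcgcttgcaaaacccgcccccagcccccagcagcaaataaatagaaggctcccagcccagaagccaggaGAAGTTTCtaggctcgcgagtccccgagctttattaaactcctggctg
Bag3 (chr7:128523333-128523632, strand +): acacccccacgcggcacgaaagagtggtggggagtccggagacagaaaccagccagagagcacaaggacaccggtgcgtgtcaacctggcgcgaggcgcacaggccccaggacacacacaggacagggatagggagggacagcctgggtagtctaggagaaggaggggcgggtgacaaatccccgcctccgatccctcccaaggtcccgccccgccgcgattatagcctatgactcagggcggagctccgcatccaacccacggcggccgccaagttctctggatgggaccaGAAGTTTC
Hspb7 (chr4:141420529-141420828, strand +): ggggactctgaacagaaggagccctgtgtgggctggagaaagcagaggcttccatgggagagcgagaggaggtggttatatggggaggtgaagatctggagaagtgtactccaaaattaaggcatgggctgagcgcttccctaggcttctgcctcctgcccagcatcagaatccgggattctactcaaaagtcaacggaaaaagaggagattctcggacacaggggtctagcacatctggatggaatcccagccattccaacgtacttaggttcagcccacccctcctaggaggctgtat
Hsph1 (chr5:149636287-149636586, strand -): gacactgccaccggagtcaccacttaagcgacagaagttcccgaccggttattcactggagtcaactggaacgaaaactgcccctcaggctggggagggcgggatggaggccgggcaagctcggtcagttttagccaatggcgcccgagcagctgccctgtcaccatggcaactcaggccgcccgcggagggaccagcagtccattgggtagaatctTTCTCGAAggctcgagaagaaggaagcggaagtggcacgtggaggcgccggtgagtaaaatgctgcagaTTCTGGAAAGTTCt

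Compared per transcript length (TPM, which scales counts by length and library total), Hspb6 was the most abundant member in control muscle and Dnajb1 the least. In 3mCON the mean levels were 2257 ± 73.5 TPM for Hspb6 (SD, n = 5), 326 ± 36.5 for Hspb8, 214 ± 96.4 for Hspb7, 148 ± 25.8 for Hspb1, 139 ± 28.8 for Hsp90aa1, 108 ± 15.1 for Bag3, 56.6 ± 13.1 for Hsph1 and 5.27 ± 0.684 for Dnajb1. Hspb6 ranked first in all 5 of these libraries, and Bag3, Hsph1 and Dnajb1 came last in that order, while Hspb8, Hspb7, Hspb1 and Hsp90aa1 exchanged places between libraries. The order changed with genotype. In 9mTSCmKO the mean levels were 2456 ± 501 TPM for Hspb6, 2321 ± 477 for Hspb7, 748 ± 236 for Hspb1, 711 ± 131 for Hspb8, 289 ± 32.5 for Bag3 and 248 ± 40.3 for Hsp90aa1. Hspb7 and Hspb6 exchanged first and second place between the 5 libraries of 9mTSCmKO, and so did Hspb1 and Hspb8 in the next 2 places, so that neither pair differed in order beyond its spread. The ratio of Hspb7 to Hspb6 TPM ranged over 0.0736 to 0.145 in 9mCON, over 0.808 to 1.06 in 9mTSCmKO and over 0.366 to 0.621 after rapamycin in 9mTSCmKO+RM, and these 3 ranges did not overlap.

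The 4 small heat shock proteins together made up 2956 ± 326 TPM in 9mCON and 6236 ± 1204 TPM in 9mTSCmKO (SD, n = 5). At 9 months the libraries of CON spanned 2626 to 3475 TPM with vehicle and 2593 to 3573 with rapamycin. Those of TSCmKO spanned 5029 to 7637 and 5260.4 to 6775 TPM, with no overlap between the genotypes. The corresponding spans at 3 months were 2799 to 3242 and 2176 to 2926 TPM for CON and 3304 to 4133 and 3859 to 7422 TPM for TSCmKO. The ratio of Hspb8 to its partner Bag3 was 4.24 ± 0.711 in 9mCON and 2.47 ± 0.44 in 9mTSCmKO, with ranges of 3.32 to 5.20 and 1.86 to 2.99 that did not overlap. At 3 months the ratio was 2.89 to 3.18 in 3mCON and 2.15 to 2.93 in 3mTSCmKO, which overlapped. With rapamycin it was 2.84 to 4.51 in 9mCON+RM and 2.04 to 3.23 in 9mTSCmKO+RM, which overlapped as well. These sums and ratios are descriptions and were not tested.

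**Figure D1:**
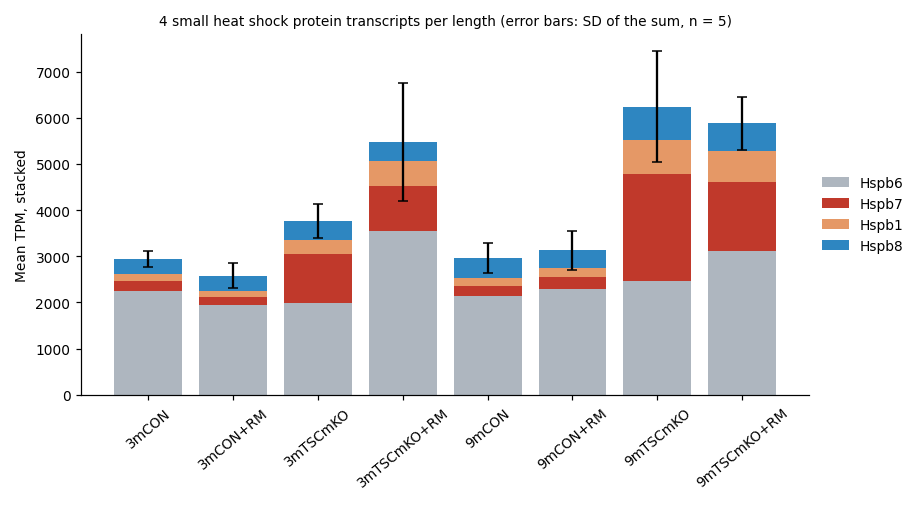
Stacked mean TPM (vertical axis) of Hspb6, Hspb7, Hspb1 and Hspb8 in the 8 groups (horizontal axis), with the SD of their sum over 5 libraries as error bars. Hspb7 rises from 227 TPM in 9mCON to 2321 TPM in 9mTSCmKO, while Hspb6 goes from 2129 to 2456 TPM.

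Differences between groups were tested on counts with edgeR's quasi-likelihood F-test (two-sided, Benjamini-Hochberg adjusted over 13543 genes, threshold 0.05), and levels below are CPM (counts scaled to the library total with TMM factors), which are comparable between libraries for one gene. The first question was how loss of Tsc1 changed these genes at 9 months, when the muscle phenotype of TSCmKO mice is severe. In 9mTSCmKO muscle 5 of the 8 members were higher than in 9mCON (Hspb7, Hspb1, Bag3, Hsp90aa1 and Hspb8), 1 was lower (Dnajb1) and 2 did not pass the test (Hspb6 and Hsph1). Over all genes tested, 37.9% passed, 19.1% higher and 18.9% lower. The median log2 fold change was 0.72 over the 8 members and -0.02 over all genes tested.

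Hspb7, a cardiac and skeletal muscle chaperone that acts at the actin filaments of the sarcomere, changed most among the members. Its levels were 265, 307, 288, 469 and 419 CPM in the 5 libraries of 9mCON and 2777, 2948, 4060.3, 4333 and 3032 CPM in those of 9mTSCmKO. Every 9mTSCmKO library was far above every control, a 9.80-fold difference with a log2 fold change of 3.29 ± 0.27 (SE, edgeR adjusted p = 3.37e-12). Hspb1 (HSP25 in the mouse), which guards actin and filamin against stress, had 90.8, 109, 73.9, 111 and 78.3 CPM in 9mCON and 306, 310.0, 604, 371 and 251 CPM in 9mTSCmKO. The groups did not overlap, and replicate 3 of 9mTSCmKO was the highest of all 40 libraries. The log2 fold change was 1.99 ± 0.24 (SE, edgeR adjusted p = 2.79e-08), 3.98-fold. A pseudogene outside the tables, Hsp25-ps1, holds 52.3% of the 31-base words of Hspb1, so that the gene's reads could not all be told from it.

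Bag3 and its partner Hspb8 also rose. Bag3 had 113, 159, 122.9, 164 and 174 CPM in 9mCON and 398, 396, 487, 373 and 326 CPM in 9mTSCmKO. The lowest mutant library stood well above the highest control, with a log2 fold change of 1.43 ± 0.13 (SE, edgeR adjusted p = 9.24e-12) or 2.70-fold. Hspb8 had 335, 405, 316, 353 and 334 CPM in 9mCON and 419, 523, 776, 515 and 553 CPM in 9mTSCmKO. These groups lay close but did not overlap, and the log2 fold change was 0.68 ± 0.12 (SE, edgeR adjusted p = 3.60e-05), 1.60-fold.

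Among the ATP-dependent chaperones the picture was mixed. Hsp90aa1, the inducible cytosolic HSP90, had 160.0, 202, 166, 135 and 110.4 CPM in 9mCON and 336, 237, 321, 241 and 180.0 CPM in 9mTSCmKO. The ranges overlapped through 1 mutant library, and the log2 fold change was 0.76 ± 0.22 (SE, edgeR adjusted p = 0.00635). Of the 31-base words of Hsp90aa1, 54.0% occur in some other gene, with pseudogenes leading, and 0.185% occur in genes of the tables. Hsph1 did not pass the test, with 53.2 to 92.6 CPM in 9mCON, 67.7 to 102 in 9mTSCmKO and a 95% interval of the log2 fold change of -0.23 to 0.52. Hspb6 (HSP20), an abundant small heat shock protein of muscle, did not pass either, with 1479.6 to 2219 against 1488 to 2683 CPM and an interval of -0.20 to 0.47.

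Dnajb1, the J-domain partner of stress-inducible HSP70, was lower in 9mTSCmKO with a log2 fold change of -0.89 ± 0.25 (SE, edgeR adjusted p = 0.00457). Its levels were 8.21, 32.8, 11.6, 9.99 and 7.90 CPM in 9mCON and 7.39, 6.88, 10.8, 6.12 and 6.47 CPM in 9mTSCmKO. The groups overlapped, and 1 control library, replicate 2, was far above the other 4. Without it the log2 fold change was -0.32, edgeR adjusted p = 0.16, and no longer past the threshold. The call was also lost in a fit to these 2 groups alone (-0.88, edgeR adjusted p = 0.0981), which left 5 members, against 2710 of 13543 genes called in that fit. In the same library the summed TPM of 5 immediate early genes (Fos, Fosb, Egr1, Atf3 and Btg2, which respond to stress within minutes) was 458, against 26.0 to 80.2 in the other 4 controls. Jun, Junb and Ier2, of the same list, have no row in the tables used. The part of this response in the Dnajb1 level was not tested.

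**Figure D2:**
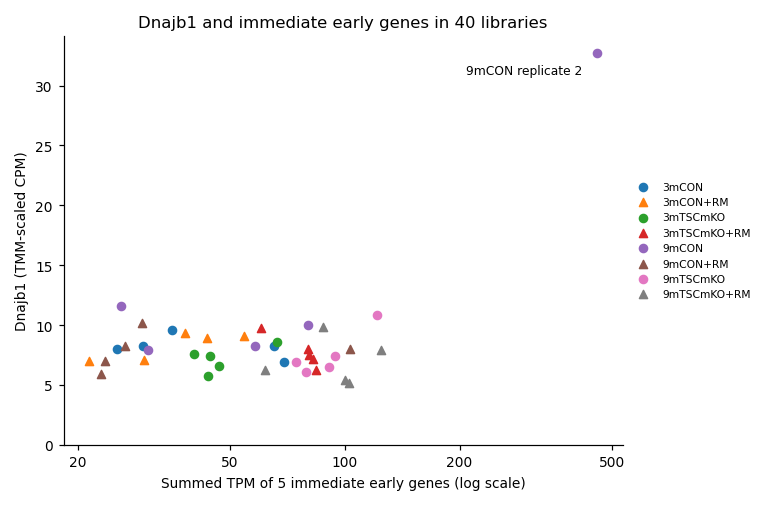
Dnajb1 level (vertical axis, TMM-scaled CPM) against the summed TPM of 5 immediate early genes (horizontal axis, log scale) in each of the 40 libraries, coloured by group, with triangles for rapamycin. Replicate 2 of 9mCON stands alone at 32.8 CPM and 458 TPM, and all other libraries lie at or below 11.6 CPM.

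Markers of other fibers and cells also differed between these groups. The 6 slow and type IIA fiber markers (Myh7, Myh2, Tnni1, Tnnt1, Myl2 and Tnnc1) summed to 158 to 456 TPM in 9mCON and 1428 to 3401 TPM in 9mTSCmKO, and 5 of 6 rose. The 7 fast fiber markers summed to 158457 to 177432 and 123421 to 135758 TPM, and 3 of 7 fell. Of 4 tendon markers all 4 fell (27.4 to 272 and 7.38 to 31.6 TPM), as did 3 of 5 fibroblast markers (592 to 1211 and 255 to 633 TPM) and 3 of 6 smooth muscle and pericyte markers (395 to 635 and 272 to 491 TPM). Endothelial markers were lower in 2 of 5 cases (91.6 to 172 and 90.9 to 152 TPM), adipocyte markers in 2 of 4 (10.1 to 19.5 and 1.72 to 7.25 TPM, without overlap) and Schwann cell markers in 1 of 5 (86.0 to 186 and 48.8 to 143 TPM), while 1 of 5 macrophage markers was higher (14.4 to 36.5 and 26.3 to 49.6 TPM). Their part in the chaperone differences was not tested, and in whole muscle a change in the number of cells of a type cannot be told from a change of RNA per cell.

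**Figure D3:**
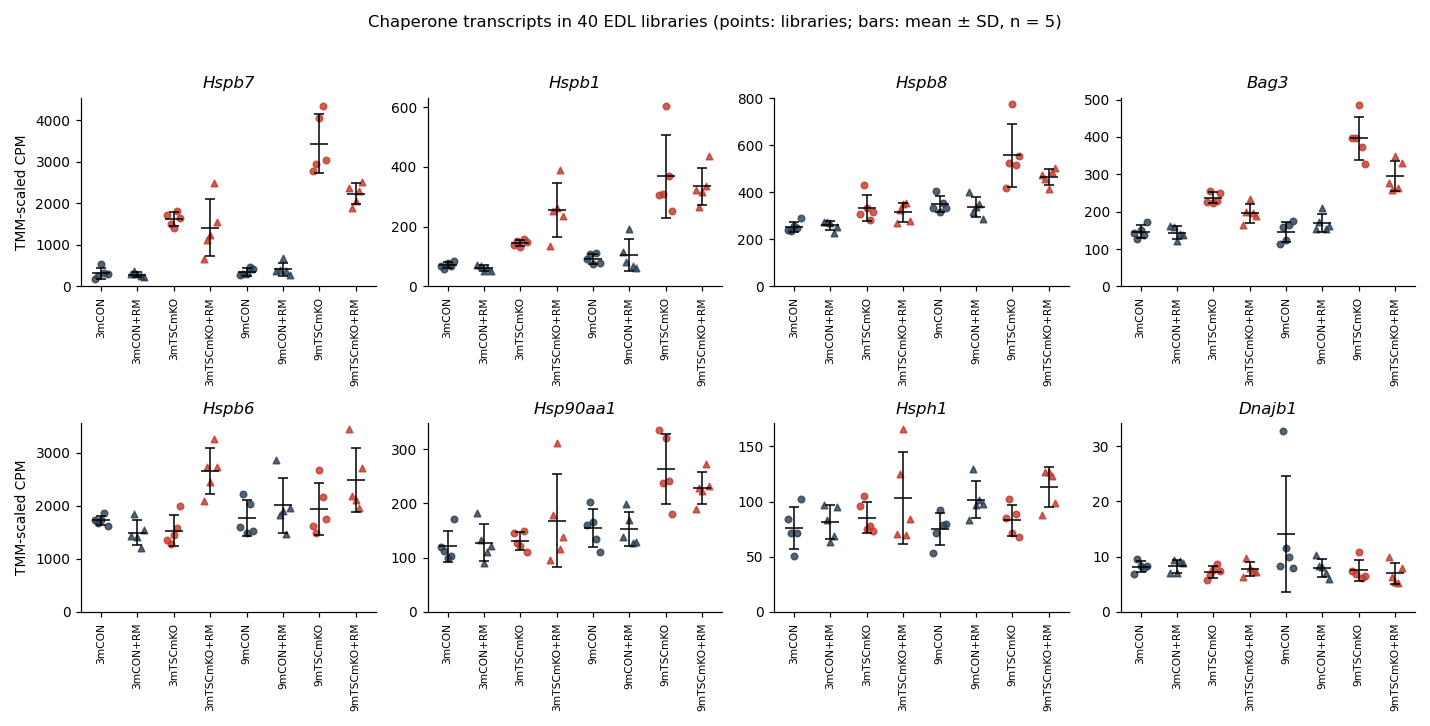
TMM-scaled CPM (vertical axes, from 0) of the 8 members in each library of the 8 groups (horizontal axes). Points are libraries (circles vehicle, triangles rapamycin, red TSCmKO, dark CON) and bars are mean ± SD of 5, and all TSCmKO libraries lie above all controls of their age and treatment for Hspb7 at both ages.

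The same comparison at 3 months, when the phenotype is weak, showed which of these differences were already present. In 3mTSCmKO 4 of the 8 members were higher than in 3mCON (Hspb7, Hspb1, Bag3 and Hspb8), and none was lower. Over all genes 19.8% passed, and 11.4% were higher. The median log2 fold change was 0.28 over the members and -0.02 over all genes. Hspb7 had 184, 239, 540.5, 312 and 296 CPM in 3mCON and 1719, 1509.9, 1397, 1813 and 1639.8 CPM in 3mTSCmKO. Replicate 3 of 3mCON was the highest control, still below every mutant, and the log2 fold change was 2.36 ± 0.26 (SE, edgeR adjusted p = 1.13e-08), 5.14-fold. Hspb1 had 66.8, 57.7, 79.1, 69.2 and 86.6 CPM in 3mCON and 139, 150.4, 131, 158 and 149 CPM in 3mTSCmKO. The groups did not overlap, with a log2 fold change of 1.02 ± 0.24 (SE, edgeR adjusted p = 0.00176).

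Bag3 at 3 months had 144, 127, 152, 137 and 173 CPM in 3mCON and 227, 257, 223, 229.5 and 250.1 CPM in 3mTSCmKO. All mutants were above all controls, and the log2 fold change was 0.70 ± 0.12 (SE, edgeR adjusted p = 5.00e-05), 1.62-fold. Hspb8 had 239, 234, 259, 248 and 289 and 309, 429, 333, 281 and 318 CPM in these groups. The ranges overlapped, and the log2 fold change of 0.40 ± 0.12 (SE, edgeR adjusted p = 0.0187) was 0.29, edgeR adjusted p = 0.105 without 3mTSCmKO replicate 2, its highest library. The remaining members did not pass the test, with 95% intervals of the log2 fold change of -0.32 to 0.55 for Hsp90aa1, -0.21 to 0.55 for Hsph1, -0.50 to 0.16 for Hspb6 and -0.67 to 0.31 for Dnajb1. Slow and IIA fiber markers summed to 227 to 866 TPM in 3mCON and 507 to 1485 TPM in 3mTSCmKO, with 1 of 6 higher by the test. Smooth muscle and pericyte markers summed to 525 to 729 and 407 to 487 TPM, which did not overlap, and 2 of 6 were lower. No marker of the other lists passed the test here, and the part of these markers was not tested.

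**Figure D4:**
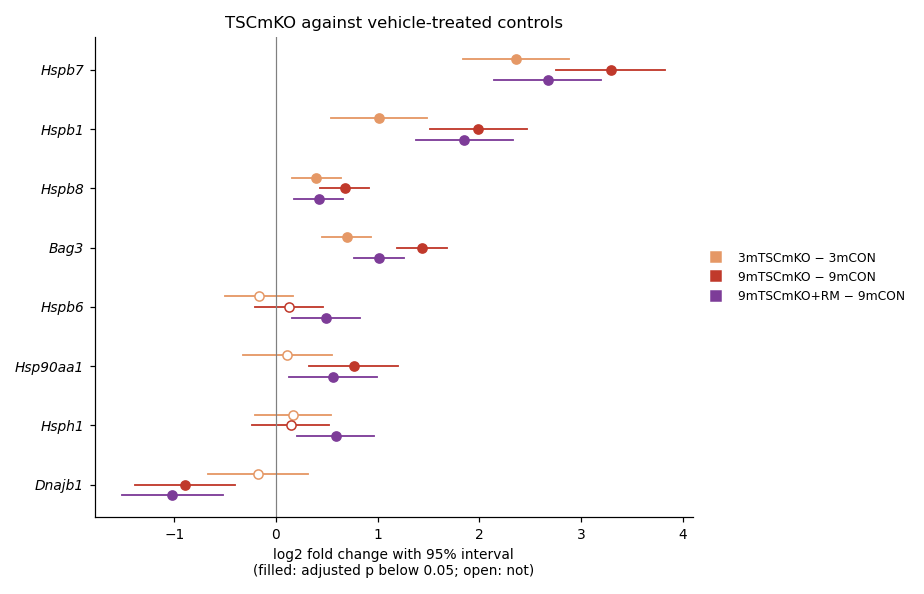
Log2 fold changes (horizontal axis) of the 8 members for 3mTSCmKO against 3mCON, 9mTSCmKO against 9mCON and 9mTSCmKO+RM against 9mCON, with bars for the 95% interval and filled points for adjusted p below the threshold of 0.05. Hspb7, Hspb1, Bag3 and Hspb8 are right of 0 and filled in all 3 comparisons, and Hspb7 reaches 3.29 at 9 months.

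Whether the effect of genotype differed between the ages was tested as an interaction. Bag3 was the 1 member that passed, against 4.94% of all genes. The genotype effect on Bag3 was larger at 9 months by 0.74 ± 0.17 (SE, edgeR adjusted p = 0.00938) on the log2 scale. For Hspb1 and Hspb7 the estimates of 0.98 and 0.93 had 95% intervals of 0.32 to 1.63 and 0.23 to 1.63 but edgeR adjusted p-values of 0.0836 and 0.126. Hspb8 had an interval of -0.06 to 0.62 and Hsp90aa1 of 0.04 to 1.27, with adjusted p-values (edgeR) of 0.391 and 0.244.

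Within TSCmKO mice 5 members were higher at 9 than at 3 months, against 37.4% of all genes in either direction and 19.1% higher. The log2 fold changes were 1.34 for Hspb1, 1.09 for Hspb7, 1.01 for Hsp90aa1, 0.74 for Bag3 and 0.74 for Hspb8 (SE 0.12 to 0.25, largest edgeR adjusted p = 0.00106). The ranges of the ages did not overlap for Hspb1, Hspb7, Hsp90aa1 and Bag3, and the share of all genes without overlap was not computed. In a fit with insert size as a term, which leaves out 9mTSCmKO+RM replicate 5 because its label gives no size, the log2 fold change of Hsp90aa1 was 0.92, edgeR adjusted p = 0.0558. The other 4 members passed in that fit, in which 12.6% of all genes did and 6.49% were higher. Marker sums of the 2 ages did not overlap for tendon (63.7 to 233 and 7.38 to 31.6 TPM at 3 and 9 months), adipocyte (8.97 to 65.2 and 1.72 to 7.25 TPM) and immediate early genes (40.3 to 66.5 and 74.4 to 122 TPM), and their part was not tested. Within controls 0 members passed in edgeR (1 in DESeq2, namely Hspb8), against 1.02% of all genes, and 2 members (Hspb8 and Dnajb1) had an unadjusted p under 0.05. Hspb8 had 234 to 289 CPM in 3mCON and 316 to 405 in 9mCON, a log2 difference of 0.46 ± 0.12 (SE, edgeR adjusted p = 0.0548). The Bag3 levels of the control ages were nearly equal, with an interval of -0.24 to 0.24.

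Rapamycin tested which chaperone levels moved within 3 days of mTORC1 inhibition. In 9mTSCmKO mice 1 member passed the test, Bag3, which fell, against 32.6% of all genes. Bag3 had 277, 258, 349, 263 and 329.8 CPM in 9mTSCmKO+RM, of which replicates 3 and 5 overlapped the lowest vehicle library (326 CPM). The log2 fold change was -0.42 ± 0.12 (SE, edgeR adjusted p = 0.00759), and it was -0.43 with an edgeR adjusted p of 0.0513 in a fit to these 2 groups alone. Hspb7 had 2373, 1892, 2062, 2305 and 2521 CPM with rapamycin, and all 5 libraries lay below all 5 vehicle libraries. Its log2 fold change of -0.62 ± 0.25 (SE, edgeR adjusted p = 0.0547) missed the threshold, and it was past it in DESeq2 (-0.63, adjusted p = 0.0371) and in the fit to the 2 groups alone (-0.63, edgeR adjusted p = 0.0174). Without 9mTSCmKO replicate 1, 2 or 5 it also passed, with log2 fold changes of -0.69 to -0.68. Hspb1 did not pass, with an interval of -0.60 to 0.32, nor did Hspb8 with -0.50 to -0.01, Hsp90aa1 with -0.64 to 0.23 or Dnajb1 with -0.62 to 0.37. The estimates for Hsph1 and Hspb6 were positive at 0.44 and 0.36, with edgeR adjusted p-values of 0.0733 and 0.101. The slow and IIA fiber markers summed to 870.3 to 1514 TPM in 9mTSCmKO+RM against 1428 to 3401 with vehicle (1 of 6 higher and 2 lower by the test). The fast fiber sums were 137865 to 160711 against 123421 to 135758 TPM, with no overlap, and 3 of 7 markers were higher and 1 lower. Among the smooth muscle and pericyte markers 1 of 6 was higher, and among the endothelial markers 1 of 5 was higher and 1 lower. Sums of these last lists overlapped (299 to 601 against 272 to 491 and 81.3 to 181 against 90.9 to 152 TPM), and the part of all these markers was not tested.

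In 3mTSCmKO mice rapamycin was followed by higher levels of 2 small heat shock proteins, Hspb6 and Hspb1, against 23.6% of all genes in either direction and 10.6% higher. Hspb6 had 1347, 1289, 1444, 1579.7 and 2005 CPM in 3mTSCmKO and 2085, 2733, 2445, 3269.8 and 2739 CPM in 3mTSCmKO+RM. The groups did not overlap, with a log2 fold change of 0.79 ± 0.17 (SE, edgeR adjusted p = 0.0006). Hspb1 had 134, 251, 263, 388 and 236 CPM with rapamycin, of which replicate 1 lay among the vehicle libraries and the other 4 above them. The log2 fold change of 0.81 ± 0.24 (SE, edgeR adjusted p = 0.0105) was 0.61, edgeR adjusted p = 0.0679 without 3mTSCmKO+RM replicate 4, the highest library. For Hspb7 the rapamycin libraries were widely spread, at 669, 1115, 1236, 2492 and 1541 CPM, around the vehicle range of 1397 to 1813, and the interval was -0.69 to 0.30. Replicates 1 and 4 were the lowest and highest of the group for both Hspb7 and Hspb1. Bag3 had 164, 198, 234, 195 and 188 CPM against 223 to 257 with vehicle, a log2 difference of -0.28 ± 0.12 (SE, edgeR adjusted p = 0.102), which passed in the fit to the 2 groups alone (-0.28, edgeR adjusted p = 0.0454). Markers moved in the same comparison. Of the fast fiber markers 3 of 7 were higher and 1 lower (133583 to 169931 TPM with vehicle and 150606 to 167636 with rapamycin in sum), and of the slow and IIA markers 1 of 6 was higher and 1 lower (507 to 1485 and 424 to 1127 TPM). Among fibroblast markers 1 of 5 was higher (577 to 1069 and 861 to 1436 TPM), as was 1 of 5 macrophage markers (14.0 to 28.1 and 17.4 to 53.7 TPM). The ranges of all 4 sums overlapped, and their part was not tested.

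**Figure D5:**
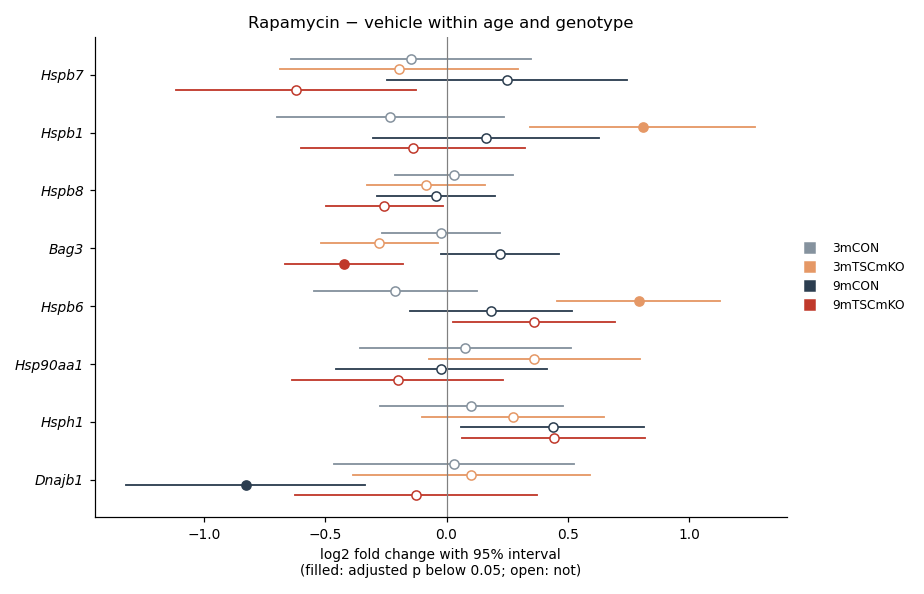
Log2 fold changes of rapamycin against vehicle (horizontal axis) of the 8 members within 3mCON, 3mTSCmKO, 9mCON and 9mTSCmKO, with bars for the 95% interval and filled points for adjusted p below the threshold of 0.05. The filled points are Bag3 in 9mTSCmKO (-0.42), Hspb6 and Hspb1 in 3mTSCmKO (0.79 and 0.81) and Dnajb1 in 9mCON (-0.83), the last of which rests on 1 control library.

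In control mice 1 of these transcripts passed the test for rapamycin in all. In 9mCON+RM 1 member, Dnajb1, was lower than in 9mCON (-0.83 ± 0.25 (SE, edgeR adjusted p = 0.0256)), against 11.8% of all genes. Without 9mCON replicate 2 its log2 fold change was -0.25, edgeR adjusted p = 0.417, in the fit to the 2 groups alone it was -0.83, edgeR adjusted p = 0.239, and without 9mCON+RM replicate 4 or 5 the adjusted p was 0.0566 or 0.079 (edgeR). The immediate early gene sum was 26.0 to 458 TPM in 9mCON and 23.0 to 103 TPM in 9mCON+RM, and 4 of the 5 genes fell. All 5 fibroblast markers (592 to 1211 and 97.7 to 459 TPM) and all 4 tendon markers (27.4 to 272 and 5.98 to 20.7 TPM) fell in the same comparison, as did 3 of 5 macrophage markers (14.4 to 36.5 and 17.3 to 25.9 TPM), and their part was not tested. In 3mCON+RM 0 members passed in edgeR and 0 in DESeq2, 0 had an unadjusted p under 0.05, and 0.679% of all genes passed. The Bag3 intervals were -0.26 to 0.22 at 3 months and -0.02 to 0.46 at 9 months, and those of Hspb7 were -0.64 to 0.35 and -0.24 to 0.74.

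The difference in rapamycin response between the genotypes was tested as an interaction. At 9 months Bag3 passed, against 4.87% of all genes, with a response in TSCmKO lower than in CON by a log2 difference of -0.64 ± 0.17 (SE, edgeR adjusted p = 0.0247). This call was lost without 9mCON replicate 3, 9mCON+RM replicate 3 or 9mTSCmKO+RM replicate 2, with log2 differences of -0.59, -0.55 and -0.60 and edgeR adjusted p of 0.0518, 0.0527 and 0.052. It was also lost in the fit to the 4 groups alone (-0.64, edgeR adjusted p = 0.125) and in limma on TPM (-0.60, adjusted p = 0.0585). At 3 months Hspb6 passed, against 3.45% of all genes, at 1.003 ± 0.24 (SE, edgeR adjusted p = 0.0126). Hspb1 had an estimate of similar size, 1.04 ± 0.34 (SE, edgeR adjusted p = 0.0825), and passed in DESeq2 (1.04, adjusted p = 0.045). The rapamycin response of TSCmKO was also compared between the ages, where 0 members passed in edgeR and 0 in DESeq2, against 1.91% of all genes, and 1 member (Hspb1) had an unadjusted p under 0.05, with an interval of -1.60 to -0.29.

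Rapamycin-treated TSCmKO muscle was then compared with vehicle-treated controls. All 8 members differed between 9mTSCmKO+RM and 9mCON, 7 higher and Dnajb1 lower, against 31.9% of all genes (15.7% higher and 16.2% lower). The 5 libraries of 9mTSCmKO+RM had 321, 267, 315, 335 and 435 CPM of Hspb1, and the log2 difference from 9mCON was 1.85 ± 0.24 (SE, edgeR adjusted p = 1.93e-07). Hspb7 still differed 6.38-fold (2.67 ± 0.27 (SE, edgeR adjusted p = 7.28e-10)), Bag3 2.02-fold (1.01 ± 0.12 (SE, edgeR adjusted p = 4.73e-08)) and Hspb8 1.34-fold (0.42 ± 0.12 (SE, edgeR adjusted p = 0.0081)). None of these 4 overlapped between the groups, and the share of all genes without overlap was not computed. The weaker calls were Hsph1 at 0.59 ± 0.19 (SE, edgeR adjusted p = 0.0173), Hspb6 at 0.49 ± 0.17 (SE, edgeR adjusted p = 0.0243) and Hsp90aa1 at 0.56 ± 0.22 (SE, edgeR adjusted p = 0.0491). Leaving out 1 library ended the call of Hsp90aa1 in 8 of 10 fits (every one of 9mCON and 9mTSCmKO+RM except 9mCON replicate 2 and 9mTSCmKO+RM replicate 1), of Hspb6 in 5 (9mCON replicates 1, 3 and 5, and 9mTSCmKO+RM replicates 1 and 5) and of Hsph1 in 1 (9mCON replicate 1), with estimates of 0.47 to 0.59 for Hsp90aa1, 0.35 to 0.46 for Hspb6 and 0.49 for Hsph1. The call of Hsp90aa1 was also lost with upper-quartile scaling and without the filter on low counts (edgeR adjusted p = 0.0593 and 0.072). It was lost with insert size as a term as well (edgeR adjusted p = 0.0817), and 7 members were left in each of these fits. Of all genes, 32.5% passed with upper-quartile scaling, 4072 of 22597 without the filter and 30.3% with insert size as a term. In the fit to the 2 groups alone, in which 23.4% of all genes passed, 6 members did, without Hspb6 (0.51, edgeR adjusted p = 0.0648) and Dnajb1 (-1.01, edgeR adjusted p = 0.0564). Without 9mCON replicate 2 Dnajb1 was at -0.44, edgeR adjusted p = 0.0598, against -1.02 ± 0.25 (SE, edgeR adjusted p = 0.00185) with it. This comparison shares its controls with the vehicle comparison above, so the values stand side by side and were not correlated. The slow and IIA fiber markers summed to 870.3 to 1514 TPM in 9mTSCmKO+RM, above the 158 to 456 TPM of 9mCON, and the fibroblast sums did not overlap either (250.4 to 544 against 592 to 1211 TPM). The sums of the other marker lists overlapped, and the part of the markers was not tested.

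At 3 months 4 members were higher in 3mTSCmKO+RM than in 3mCON, namely Hspb7, Hspb1, Hspb6 and Bag3, against 16.7% of all genes in either direction and 8.98% higher. The log2 differences were 2.17 ± 0.26 (SE, edgeR adjusted p = 1.16e-07) for Hspb7 and 1.82 ± 0.24 (SE, edgeR adjusted p = 8.18e-07) for Hspb1. Hspb6 was at 0.62 ± 0.17 (SE, edgeR adjusted p = 0.00856), with no overlap between 1624 to 1856 and 2085 to 3269.8 CPM. Bag3 was at 0.42 ± 0.12 (SE, edgeR adjusted p = 0.0143), and without 3mCON replicate 2 or 3mTSCmKO+RM replicate 3 at 0.37 or 0.35 with edgeR adjusted p of 0.0514 or 0.0614. Hspb8, Hsp90aa1 and Hsph1 had estimates of 0.31, 0.48 and 0.44, with edgeR adjusted p of 0.0777, 0.147 and 0.114. Each of these 3 passed without a single library, Hspb8 and Hsp90aa1 without 3mTSCmKO+RM replicate 1 (0.37 and 0.62) and Hsph1 without 3mCON replicate 5 (0.57). Hspb8 also passed in the fit to the 2 groups alone (0.33, edgeR adjusted p = 0.0198) and in limma on TPM (0.33, adjusted p = 0.0358).

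Some pairs of members also varied together between replicates of the same group. After the group mean of log2 CPM was removed, Pearson correlations over the 40 libraries among the 28 pairs of members ran from -0.315 to 0.713. The most alike were Hspb1 and Hspb7 at 0.713 (Spearman 0.633), Hsp90aa1 and Hsph1 at 0.664 (Spearman 0.605), and Hspb1 and Bag3 at 0.622 (Spearman 0.602). Hsp90aa1 and Hsph1 were both highest of their group in replicate 3 of 3mTSCmKO+RM, with 311 and 166 CPM against group medians of 137 and 84.5. Hsph1 and Hspb6 went the opposite way at -0.315 (Spearman -0.311). The points share library and depth, and pairs of other genes were not set beside them, so these values are descriptions.

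Among 9638 genes with a mean of at least 5 CPM, the genes whose log2 CPM over all 40 libraries was most like that of each member were ranked by Pearson r. Group means were not removed for this ranking, so the values also hold the differences between groups and are descriptions. For Hspb7 they were Mknk2 (0.966), Spag5 (0.961) and Myl12a (0.947), and for Hspb1 Otulin (0.946), Hspb7 (0.926) and Ankrd1 (0.923). Mknk2 encodes a kinase of the translation factor eIF4E, Otulin a deubiquitinase, and Ankrd1 a stress-responsive titin-binding protein. The genes most like Bag3 were Tnfrsf23 (0.944), Tnfrsf22 (0.932) and Slc7a5 (0.924), of which Slc7a5 encodes an amino acid transporter. Hspb8 was most like Psmc4 (0.919), Psmc1 (0.913) and Lgals1 (0.884), of which Psmc4 and Psmc1 encode ATPases of the proteasome. Hsp90aa1 was most like Ahsa2 (0.871), Ubxn4 (0.835) and Hnrnpc (0.832), and Ahsa2 belongs to the activators of HSP90. Hsph1 was most like Prpf6 (0.762), P4ha2 (0.749) and Chordc1 (0.745), of which Chordc1 encodes a co-chaperone of HSP90. Hspb6 was most like Shisa4 (0.827), Trib1 (0.772) and Rgcc (0.772), and Dnajb1 like Cinp (0.754), Apold1 (0.751) and Klf4 (0.746).

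The wider chaperone network was taken from gene lists outside the 10 members. The counts of each list stand against all genes tested, of which 37.9% passed for genotype at 9 months and 19.8% at 3 months, and 32.6%, 23.6%, 11.8% and 0.679% for rapamycin in 9mTSCmKO, 3mTSCmKO, 9mCON and 3mCON. The list headed small heat shock proteins had 3 genes tested (Cryab, Hspb2 and Hspb11, the last placed there by its symbol). In TSCmKO 2 were higher and 0 lower at 9 months and 0 higher and 0 lower at 3 months, with median log2 fold changes of 0.85 and 0.16. Cryab, alpha B-crystallin, went from 642 ± 132 to 1296 ± 503 CPM between 9mCON and 9mTSCmKO, a log2 fold change of 1.01 ± 0.20 (SE), and fell by 0.60 on the log2 scale with rapamycin. Hspb2 fell with rapamycin in TSCmKO at both ages, by 0.61 at 9 and 0.56 at 3 months. With rapamycin the list had 0 higher and 2 lower in 9mTSCmKO, 0 higher and 1 lower in 3mTSCmKO, 0 higher and 0 lower in 9mCON and 0 higher and 0 lower in 3mCON.

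Genes of Bag3's own route moved in both directions. Of 10 BAG family members and partners of chaperone-assisted selective autophagy, 3 were higher and 2 lower at 9 months, and 2 were higher and 2 lower at 3 months, in TSCmKO, which is 5 of 10 against 37.9% of all genes and 4 of 10 against 19.8%, with median log2 fold changes of -0.08 and -0.02. Sqstm1, which encodes the autophagy receptor p62, went from 612 ± 43.4 to 1798 ± 403 CPM at 9 months (log2 fold change 1.56 ± 0.13, SE) and from 483 ± 61.7 to 1056 ± 241 CPM at 3 months (1.13 ± 0.13). It fell with rapamycin in TSCmKO, with log2 fold changes of -1.06 ± 0.13 at 9 and -0.83 ± 0.13 at 3 months. Flnc, filamin C and a client of Bag3, rose by 0.89 ± 0.28 and 0.82 ± 0.28 in TSCmKO at 9 and 3 months, and rose further with rapamycin by 0.98 ± 0.28 and 1.37 ± 0.28. Synpo2, which ties Bag3 to the membrane fusion machinery of autophagy, was lower in 9mTSCmKO (-0.56 ± 0.20) and rose with rapamycin by 1.16 ± 0.20 at 9 and 0.92 ± 0.20 at 3 months. Rapamycin gave 3 higher and 2 lower in 9mTSCmKO, 2 higher and 3 lower in 3mTSCmKO, 2 higher and 0 lower in 9mCON (Bag6, 0.43 ± 0.12, and Hspa8, 0.54 ± 0.14), and 0 higher and 0 lower in 3mCON. Hspa8 also belongs to the HSP70 list below, so its calls are counted in both lists.

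Among 10 J-domain proteins tested, 5 were higher and 2 lower at 9 months, and 3 were higher and 1 lower at 3 months, in TSCmKO, with medians of 0.29 and -0.01. Dnajb6, the product of which suppresses protein aggregation in muscle, rose by 0.98 ± 0.09 (SE, log2 scale) and 0.51 ± 0.09 at these ages and fell with rapamycin, -0.55 ± 0.09 and -0.57 ± 0.09. Dnajb4 rose by 1.03 ± 0.14 and 0.64 ± 0.14 in TSCmKO, while Dnajb5 was lower, with log2 fold changes of -0.87 ± 0.11 and -0.51 ± 0.11. Rapamycin gave 4 higher and 2 lower in 9mTSCmKO, 2 higher and 2 lower in 3mTSCmKO, 1 higher and 0 lower in 9mCON (Dnajb2, 0.50 ± 0.10) and 0 higher and 0 lower in 3mCON. Dnajb2 also rose in 9mTSCmKO+RM (0.79 ± 0.10) and Dnaja4 in 3mTSCmKO+RM (0.87 ± 0.15), while Dnajb14 fell with rapamycin in TSCmKO at both ages (-0.69 ± 0.12 and -0.78 ± 0.12).

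Of 10 HSP70 and HSP110 family genes and exchange factors, 4 were higher and 1 lower at 9 months, and 0 were higher and 1 lower at 3 months, in TSCmKO, with medians of 0.19 and 0.07. Hspa2 rose by 1.53 ± 0.18 (SE, log2 scale), Hspa4l by 0.71 ± 0.15 and Hspa4 by 0.63 ± 0.12 at 9 months, and Hspa8, the constitutive HSC70, was lower at 3 months (-0.38 ± 0.14). Rapamycin gave 1 higher and 4 lower in 9mTSCmKO, 1 higher and 0 lower in 3mTSCmKO, 2 higher and 0 lower in 9mCON (Hspa8, 0.54 ± 0.14, and St13, 0.34 ± 0.10) and 0 higher and 0 lower in 3mCON. Hspa2 fell (-1.13 ± 0.17) and so did Hspbp1 (-0.45 ± 0.13) in 9mTSCmKO+RM. Hspa1l rose with rapamycin in TSCmKO, from 43.0, 35.3, 39.1, 52.8 and 41.0 to 59.8, 77.5, 98.8, 78.9 and 70.8 CPM at 3 months and from 45.2, 51.7, 49.7, 65.7 and 47.0 to 84.4, 88.9, 96.1, 77.1 and 105 CPM at 9 months. Neither pair of groups overlapped, and the log2 fold changes were 0.87 ± 0.15 (SE, edgeR adjusted p = 3.54e-05) and 0.80 ± 0.15 (SE, edgeR adjusted p = 8.03e-05). Hspa1l neighbours Hspa1a and Hspa1b on chromosome 17, and 14.6% of its 31-base words occur in Hspa1a and 12.6% in Hspa1b, so that reads of these genes, which have no row, could have been counted in Hspa1l. Their part was not tested.

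Of 15 genes of HSP90 and its co-chaperones, 1 was higher and 3 lower at 9 months, and 2 were higher and 3 lower at 3 months, in TSCmKO, with medians of 0.01 and -0.02. Smyd1, a methyltransferase that works with HSP90 on myosin, was lower at both ages (-0.54 ± 0.10 and -0.47 ± 0.10, SE, log2 scale), and Fkbp5 was higher at 3 months (1.17 ± 0.34). Rapamycin gave 5 higher and 1 lower in 9mTSCmKO, 4 higher and 3 lower in 3mTSCmKO, 3 higher and 0 lower in 9mCON and 0 higher and 0 lower in 3mCON. Hsp90ab1, the constitutive partner of Hsp90aa1, rose with rapamycin in 9mTSCmKO from 1421 ± 95.2 to 2432 ± 174 CPM (0.78 ± 0.12), in 3mTSCmKO (0.76 ± 0.12) and in 9mCON (0.84 ± 0.12), and Hsp90aa1 passed the test in none of these 3 comparisons. Fkbp4 rose with rapamycin in 9mTSCmKO (0.55 ± 0.09) and 9mCON (0.48 ± 0.09).

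The heat shock factor list had 5 genes tested, with 2 higher and 1 lower at 9 months and 0 higher and 0 lower at 3 months in TSCmKO and medians of 0.47 and -0.17. Hsf1 was lower in 9mTSCmKO (51.0 ± 4.81 to 37.1 ± 2.01 CPM, log2 fold change -0.46 ± 0.10, SE) and Hsf2 higher (0.67 ± 0.14). Hsf1 rose with rapamycin in 9mTSCmKO (0.57 ± 0.10), 3mTSCmKO (0.28 ± 0.10) and 9mCON (0.45 ± 0.10). In these 3 and in 3mCON rapamycin gave 1 higher and 0 lower, 1 higher and 0 lower, 2 higher and 0 lower and 0 higher and 0 lower. The 7 mitochondrial chaperones had 1 higher and 2 lower at 9 months and 0 higher and 3 lower at 3 months in TSCmKO (medians -0.17 and -0.33), and Dnaja3 was lower at both (-0.49 ± 0.12 and -0.51 ± 0.12). The 8 subunits of the chaperonin TRiC had 2 higher and 1 lower and 0 higher and 1 lower (medians -0.13 and -0.13), and Cct4 rose with rapamycin in all 4 settings, by 0.79 ± 0.12 in 9mTSCmKO, 0.81 ± 0.12 in 3mTSCmKO, 0.75 ± 0.12 in 9mCON and 0.51 ± 0.12 in 3mCON. With rapamycin the mitochondrial list had 1 higher and 1 lower in 9mTSCmKO, 1 higher and 0 lower in 3mTSCmKO and none in controls, and TRiC had 2 higher and 2 lower, 2 higher and 0 lower, 3 higher and 0 lower and 1 higher and 0 lower in the same order of groups. All calls in these lists had an edgeR adjusted p below the threshold of 0.05 over all genes tested, and the lists were chosen with results of these data known.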

How the data were processed

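The authors isolated poly(A) RNA from whole EDL muscle and sequenced directional single-end libraries. Per the submitters' processing notes they used cutadapt 1.9.1, kallisto 0.43.1 and GRCm38, and per the study text protein-coding transcripts were counted, with a read that hit several transcripts divided equally among them. The deposited estimated counts per gene and the TPM that the authors derived from them were used. No column of values lacked a label (0 columns).

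Counts were rounded and fitted with edgeR 4.0.16 in R 4.3.3 (TMM factors, 8 group means over 40 libraries, robust quasi-likelihood F-tests, two-sided, Benjamini-Hochberg threshold 0.05) on 13543 genes with at least 1 CPM in 5 or more libraries. There were 14 contrasts. SE came from the F-statistic, and intervals are 95%. Depth was 8883870 to 35224669 counts, which bounds precision mainly for Dnajb1 (62 to 434 counts). Per the study text each sample was the muscle of 1 animal, 5 mice a group. Alternatives were other scalings, no filter, DESeq2 1.42.0, limma 3.58.1 on log2(TPM + 1), the compared groups alone, insert size, a replicate block and leaving out each library.

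The members and lists were chosen with earlier results of these data known. The genes named are all members, up to 3 called genes per list and comparison with the largest change and at least 5 CPM, and 3 genes of the most similar pattern per member. Where a symbol occurred more than once among the list genes, the row with more counts was used. The share of 31-base words that a member holds in common with other genes was computed on GENCODE transcripts of GRCm38, and promoter sequences are from RefSeq.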

Additional observations from a re-analysis of the deposited data

Results flagged for a closer look

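In 64 combinations of member and group, each with 5 libraries, 3 held a library whose gap to its nearest neighbour was over 0.71 of the group's range, the 95% limit of Dixon's test, which chance alone reaches in about 1 of 20 groups. Dnajb1 in 9mCON replicate 2 was at 32.8 CPM against a median of 9.10 in the other 4, with an immediate early gene sum of 458 TPM in the same library. Dnajb1 in 9mTSCmKO replicate 3 was at 10.8 CPM against a median of 6.68, and this library had the highest immediate early gene sum of its group, 122 TPM. Hspb7 in 9mCON+RM replicate 3 was at 689 CPM against a median of 362, and Hspb1 (192 CPM), Bag3 (211 CPM) and the immediate early gene sum (103 TPM) were also highest of the group there. So were the summed markers of slow and IIA fibers (537 TPM), smooth muscle and pericytes (590.1 TPM), endothelium (182 TPM), Schwann cells (185 TPM), tendon (20.7 TPM), adipocytes (20.6 TPM), macrophages (25.9 TPM) and fast fibers (173859 TPM). The part of the immediate early genes and of these markers was not tested.

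Effects that differed between groups by a tested interaction were 3. The genotype effect on Bag3 was larger at 9 than at 3 months by 0.74 on the log2 scale (edgeR adjusted p = 0.00938). The rapamycin effect on Bag3 at 9 months differed between TSCmKO and CON by -0.64 (edgeR adjusted p = 0.0247). The rapamycin effect on Hspb6 at 3 months differed between TSCmKO and CON by 1.003 (edgeR adjusted p = 0.0126), higher in TSCmKO.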

How the results depend on the processing

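In 112 combinations of member and comparison, 34 passed the threshold, and no value reversed its sign with a call under any alternative run. Over the 14 comparisons, the share of all genes that passed ran from 0.679% to 37.9%. Across the 8 settings other than leaving out a library, calls were gained in 12 cases (7 combinations) and lost in 11 (8 combinations), and leaving out 1 library at a time gained 15 and lost 26, affecting 10 of the 34 calls and 12 of the others. RLE scaling changed no member's call. With the fit to the compared groups alone, members called were 5 for genotype at 9 months (Dnajb1 lost, adjusted p = 0.0981), 6 for 9mTSCmKO+RM against 9mCON (Hspb6 and Dnajb1 lost), 0 for rapamycin in 9mCON (Dnajb1 lost, adjusted p = 0.239), 0 for the rapamycin by genotype interaction at 9 months (Bag3 lost, adjusted p = 0.125), 2 for the genotype by age interaction (Hspb1 added) and 2 for the rapamycin by genotype interaction at 3 months (Hspb1 added). In that fit 2710 of 13543 genes passed in the first of these comparisons, and 23.4%, 4.28%, 1.48%, 2.29% and 8.70% in the others. DESeq2 called 2 members in the genotype by age interaction, 2 for rapamycin in 9mTSCmKO (Hspb7 added), 2 in the rapamycin by genotype interaction at 3 months and 1 in 9mCON against 3mCON, and limma on TPM called 2 for rapamycin in 9mTSCmKO and 0 in the rapamycin by genotype interaction at 9 months. Of all genes DESeq2 called 6.40%, 34.0%, 4.37% and 2.77% in its 4 comparisons, and limma 29.0% and 4.78%. Upper-quartile scaling called 1 member in 9mCON against 3mCON (Hspb8), and 1.26% of all genes. The causes were not tested.

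Leaving out 1 library moved the number of members called over 1 to 2 for the genotype by age interaction, 1 to 3 for rapamycin in 9mTSCmKO, 1 to 2 for rapamycin in 3mTSCmKO, 0 to 1 for rapamycin in 9mCON, 0 to 1 and 1 to 2 for the rapamycin by genotype interaction at 9 and 3 months, 5 to 7 for 9mTSCmKO+RM against 9mCON, 3 to 6 for 3mTSCmKO+RM against 3mCON and 0 to 2 for 9mCON against 3mCON. Genotype at 9 and 3 months gave 5 to 6 and 3 to 4 members, and 9mTSCmKO against 3mTSCmKO gave 5 to 6. Shares of all genes in the fits without 1 library are not given here. The libraries that ended a call are named beside it in the report. Calls gained that are not given there were Hspb1 in the genotype by age interaction without 9mTSCmKO replicate 5 (log2 1.07), Hspb1 in the rapamycin by genotype interaction at 3 months without 3mTSCmKO+RM replicate 1 (1.202), Hspb6 (0.50), Hspb8 (-0.35) and Hsph1 (0.52) for rapamycin in 9mTSCmKO without 9mTSCmKO replicate 3, 9mTSCmKO replicate 1 and 9mTSCmKO+RM replicate 1, Hspb8 in 9mCON against 3mCON without 3mCON replicate 5 (0.51) or 9mCON replicate 5 (0.48), Dnajb1 there without 9mCON replicate 5 (0.93), and Hspb6 in 9mTSCmKO against 3mTSCmKO without 3mTSCmKO replicate 5 (0.45).

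Replicate numbers are shared between groups, but the samples were not taken as paired: correlations of deviations of same-numbered libraries had a median of 0.00118 over 140 pairs (-0.459 to 0.561), and 4 of 40 libraries were most alike with their own number. With a replicate block, members called were 6 at 9 months and 4 at 3 months for genotype, against 37.5% and 19.7% of all genes. In every comparison the calls of members were those without the block. The planned sum of Hspa1a and Hspa1b was not run because neither has a row. Low counts limit Dnajb1, and pseudogene sequence limits Hspb1 and Hsp90aa1.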
